A study of Mus musculus with 10 samples.

Results

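Loss of SCAP from mouse liver was compared with its wild type on 4 of the 10 arrays of the series. Each of these arrays carries 12477 probe sets, of which 66 were control probe sets and the other 12411 are described here. All of them were kept, with no filter on signal. The Scap-/- group held male Scap-/-;MX1-Cre mice aged 10 to 12 weeks, and the control group held the corresponding wild type males. Both groups ate Teklad chow and had 4 intraperitoneal injections of polyinosinic-polycytidylic acid, and livers were taken 14 days after the last injection. Equal amounts of RNA from 5 livers were joined into 1 pool per group, 20 µg in all, and each pool was hybridised to 2 Affymetrix MG_U74Bv2 arrays. The other 6 arrays of the series, used here only for comparison, held pools of livers from male mice aged 12 to 16 weeks after 2 weeks on a diet high in protein and low in carbohydrate. Those mice were transgenic for active nuclear human SREBP-1a, named TgSREBP-1a, or SREBP-2, named TgSREBP-2, or were their wild type littermates.

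SREBPs are membrane-bound transcription factors that switch on the genes of cholesterol and fatty acid synthesis. SCAP, a sterol sensor of the endoplasmic reticulum, escorts SREBP precursors to the Golgi, where proteases release the part that enters the nucleus. When sterols are plentiful, INSIG proteins hold SCAP back, and without SCAP neither the SREBP-1 nor the SREBP-2 precursors are processed. In the liver SREBP-1c is best known for fatty acid synthesis and SREBP-2 for cholesterol synthesis and uptake. In this model Cre recombinase is driven by the Mx1 promoter, which interferon switches on. Polyinosinic-polycytidylic acid mimics double-stranded RNA and calls forth that interferon. The Mx1 promoter also responds to interferon outside hepatocytes.

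Expression values are on the log2 scale of RMA, a method that removes background, brings all arrays to 1 distribution and condenses the probes for a transcript into 1 value. A change is Scap-/- minus wild type in log2 units, given with its limma standard error (SE, n = 2 arrays per group), so a change of -1 is a halving of signal. A probe set was called where limma gave a Benjamini-Hochberg adjusted p under 0.05 over all 12411 probe sets and the change was at least 1.5-fold. Both arrays of a group came from 1 pool. The p-values therefore set a difference between pools against the error of hybridisation, and the spread between mice is unknown. An exact permutation test of 2 arrays against 2 cannot go below p = 0.333.

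Duplicate arrays differed more in the Scap study than in some other groups. The SD of the difference between duplicates was 0.225 for Scap-/- and 0.246 for its wild type, against 0.162 to 0.221 in the other 3 groups. Across probe sets, the first Scap-/- array correlated at 0.989 with its own duplicate and at 0.993 with the second wild type array. The second Scap-/- array correlated at 0.970 with the first wild type array, the lowest of the 4 correlations between the groups. Control probe sets on the same arrays also moved within the groups. The 3' probe set for 18S ribosomal RNA read 7.91 and 9.38 on the Scap-/- arrays and 7.49 and 8.28 on the wild type arrays. The 3' minus 5' difference for beta-actin, a measure of how complete the labelled RNA was, came to 1.23 and 1.01 in Scap-/- and 1.39 and 1.27 in wild type. For Gapdh it went the other way, with 0.91 and 0.99 in Scap-/- and 0.84 and 0.82 in wild type. The part of these differences in the results below was not tested.

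**Figure D1:**
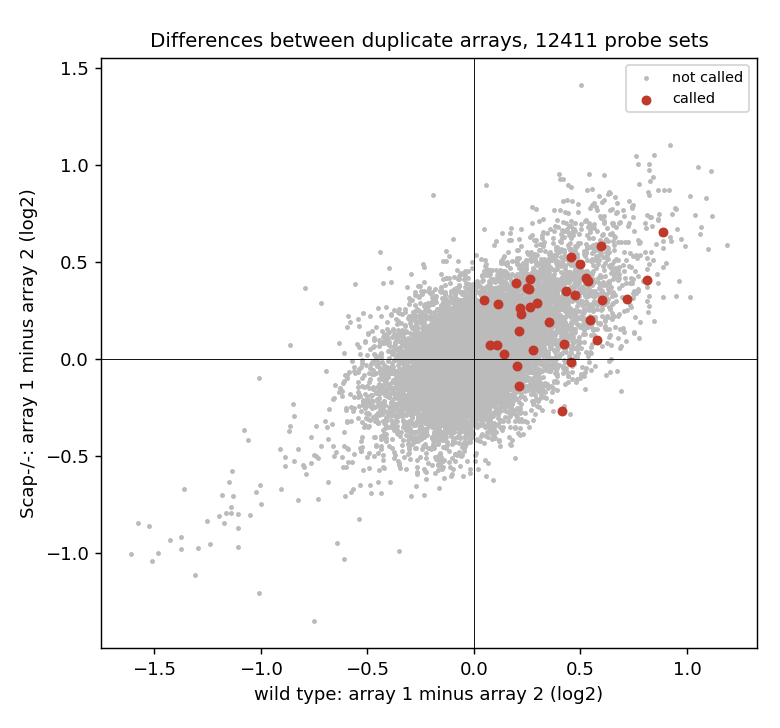
Difference between the duplicate arrays of each pool (log2, array 1 minus array 2) for all 12411 probe sets, Scap-/- on the vertical axis and wild type on the horizontal axis, with called probe sets marked. The clouds have SDs of 0.225 and 0.246, and among the 32 called falls array 1 read above array 2 in 28 for Scap-/- and in all 32 for wild type.

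Of 12411 probe sets, 34 were called (0.274%), of which 32 were lower in Scap-/- liver (0.258%) and 2 were higher (0.0161%). The 32 falls comprised 26 named genes on 28 probe sets and 4 probe sets without a symbol, with a median change of -1.30. With probe sets split into 5 equal bins by mean level over all arrays, 25 of the 34 calls lay in the brightest bin, 7 in the next and 2 in the dimmest 2. The whole table did not shift, with a median change of 0.02 over all probe sets and medians between 0.00 and 0.03 in the 5 bins. At an unadjusted p under 0.05, 545 probe sets were lower and 415 higher. In bulk liver, fewer cells of a type and less RNA per cell cannot be told apart.

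**Figure D2:**
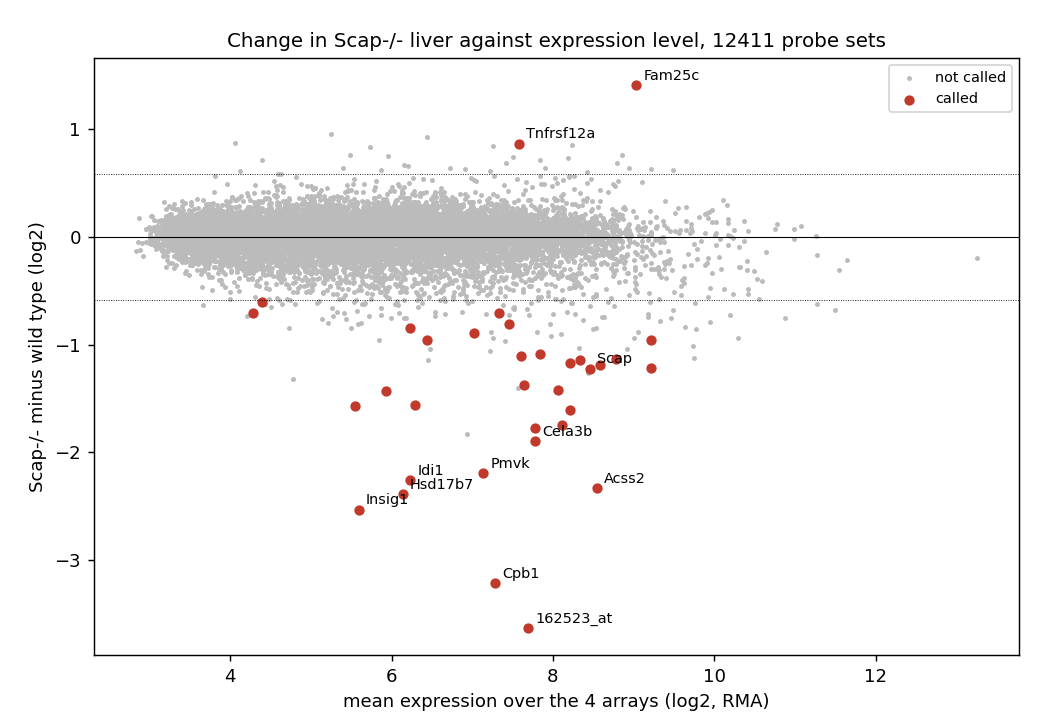
Change in Scap-/- liver (log2, Scap-/- minus wild type) against the mean level over the 4 arrays (log2) for 12411 probe sets, with called probe sets coloured and dotted lines at 1.5-fold. The 32 called falls lie below the dotted line at the lower edge of a cloud centred at 0.02, among uncalled points of similar size, and the 2 called rises are Fam25c and Tnfrsf12a.

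The number of calls rested on single arrays. It was 31 without the first Scap-/- array, 10 without the second, 11 without the first wild type array and 68 without the second. Of the 34 calls, 9 were also made without each array in turn: 162523_at, Cpb1, Cela3b, Acss2, Idi1, Insig1, Cyp51, 108752_at and Fam25c. In a fit to the 4 arrays of the Scap study alone, where the spread has fewer degrees of freedom, 5 of the 34 were called: 162523_at, Cpb1, Cela3b, Acss2 and Idi1. By size alone, 116 probe sets (0.935%) were at least 1.5-fold lower and 11 (0.0886%) at least 1.5-fold higher with no overlap between the groups, the 34 calls among them. With 1 array left in a group, that array was assumed to vary as the others do.

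**Figure D3:**
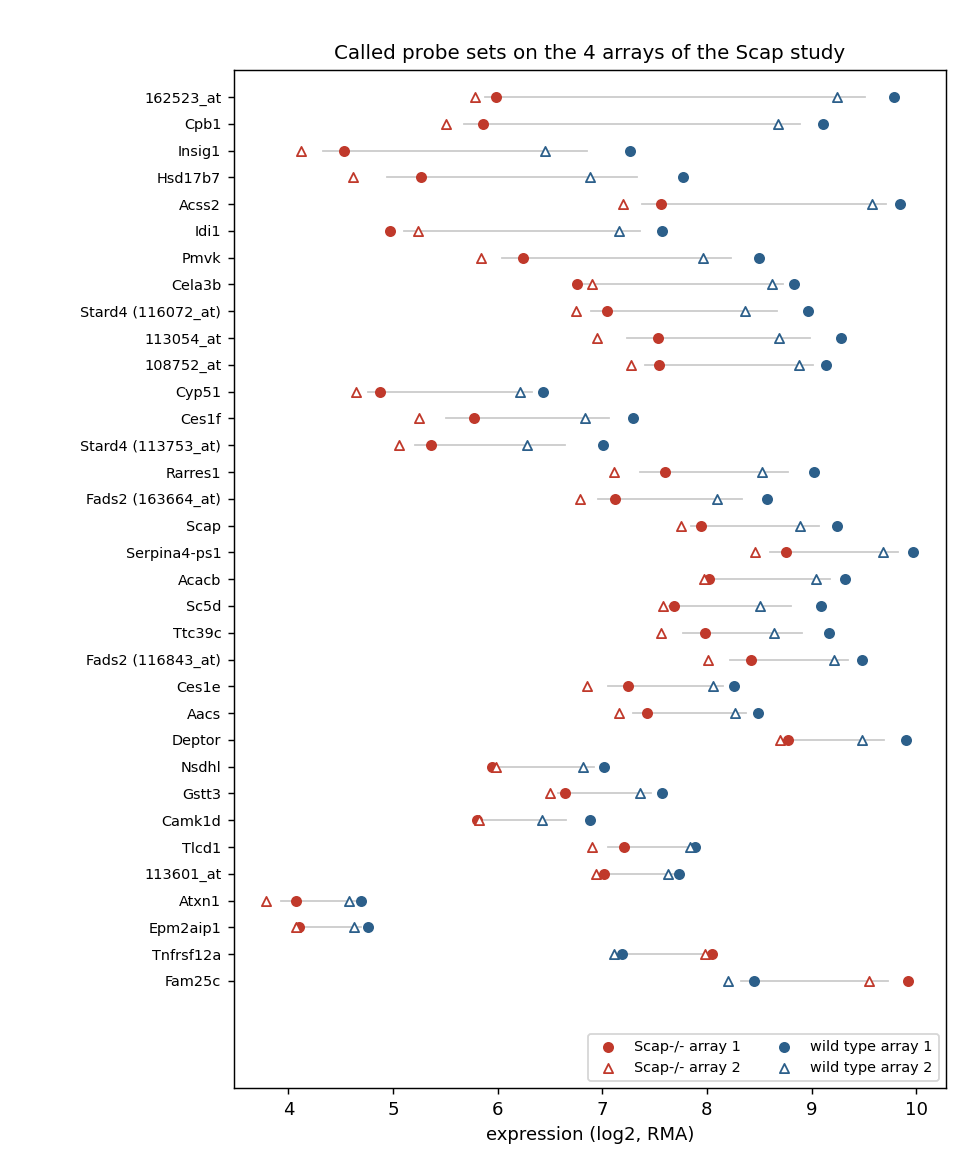
Expression (log2, RMA) of the 34 called probe sets on each of the 4 arrays, circles for array 1 and triangles for array 2, red for Scap-/- and blue for wild type, with a line between the group means. No called probe set has overlapping groups, and the lines shorten from a change of -3.63 at the top to -0.61 for Epm2aip1, with the 2 rises below.

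Promoter windows are shown for genes of sterol synthesis and sensing that fell together, since SREBPs act on such promoters with the partner factors NF-Y and Sp1. The windows run from 250 bases before to 50 bases after the start of the gene and come from RefSeq on GRCm38.p6. Capitals mark matches to CCAAT, the NF-Y motif, and to GGGCGG, an Sp1 motif, on either strand, so that ATTGG and CCGCCC are the same motifs read from the opposite strand. Insig1 lies at chr5:28071162-28071461 on the plus strand, Hsd17b7 at chr1:169969156-169969455 on the minus strand, and Idi1 at chr13:8885356-8885655 on the plus strand. Pmvk, the first of 2 windows, lies at chr3:89454291-89454590 on the plus strand, and Cyp51 at chr5:4104648-4104947 on the minus strand.
Insig1: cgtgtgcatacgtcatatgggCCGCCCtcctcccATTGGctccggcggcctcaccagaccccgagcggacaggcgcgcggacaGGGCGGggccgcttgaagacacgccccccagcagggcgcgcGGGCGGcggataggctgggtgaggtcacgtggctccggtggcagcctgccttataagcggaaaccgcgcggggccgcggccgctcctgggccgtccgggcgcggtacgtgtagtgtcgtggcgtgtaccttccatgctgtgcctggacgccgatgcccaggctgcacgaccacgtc
Hsd17b7: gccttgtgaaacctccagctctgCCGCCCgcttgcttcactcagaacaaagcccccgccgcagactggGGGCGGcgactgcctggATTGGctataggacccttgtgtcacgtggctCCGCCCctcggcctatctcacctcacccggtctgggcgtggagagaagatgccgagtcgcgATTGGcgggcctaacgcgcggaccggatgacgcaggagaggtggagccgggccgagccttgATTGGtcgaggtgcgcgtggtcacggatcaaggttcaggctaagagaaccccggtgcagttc
Idi1: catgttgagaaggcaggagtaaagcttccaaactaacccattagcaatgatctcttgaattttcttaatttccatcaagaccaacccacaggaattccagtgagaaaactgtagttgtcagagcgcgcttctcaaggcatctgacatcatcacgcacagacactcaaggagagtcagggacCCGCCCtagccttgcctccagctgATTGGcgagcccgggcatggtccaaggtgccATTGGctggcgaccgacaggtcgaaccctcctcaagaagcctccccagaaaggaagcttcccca
Pmvk: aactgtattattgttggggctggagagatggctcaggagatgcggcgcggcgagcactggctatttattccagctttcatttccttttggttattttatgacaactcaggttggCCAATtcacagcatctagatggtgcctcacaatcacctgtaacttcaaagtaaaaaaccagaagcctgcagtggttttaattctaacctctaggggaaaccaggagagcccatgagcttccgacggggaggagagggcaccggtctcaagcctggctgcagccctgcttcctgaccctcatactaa
Cyp51: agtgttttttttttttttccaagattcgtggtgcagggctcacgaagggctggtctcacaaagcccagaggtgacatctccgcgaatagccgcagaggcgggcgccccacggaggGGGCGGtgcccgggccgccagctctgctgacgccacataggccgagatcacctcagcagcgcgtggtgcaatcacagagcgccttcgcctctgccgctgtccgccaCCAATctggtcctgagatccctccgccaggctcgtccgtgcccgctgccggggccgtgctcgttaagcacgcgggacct

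Of the 26 genes that fell, 20 matched a window in the RefSeq table, with 25 windows in all. Stard4, Ces1f, Serpina4-ps1, Ttc39c, Deptor and Atxn1 did not match. CCAAT was present in the windows of 12 of the 20 genes, and in 41.06% of the 27025 genes of the table. GGGCGG was also present in 12 of the 20, and in 38.2% of all genes. The classical sterol regulatory element TCACNCCAC was found in 1 of the 20 genes, on the minus strand 68 bases before the second start of Camk1d, against 1.44% of all genes. The related TCACNCGAC and the E-box TCACGTGA were found in 0 of the 20, against 0.37% and 1.12% of all genes. In the Hsd17b7 window CCAAT occurred 3 times on the minus strand, starting 165, 73 and 12 bases before the start of the gene. In the Idi1 window it occurred at 45 and 14 bases before the start. These letter matches describe the windows only.

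The targeted gene was measured first. Scap on its brighter probe set read 7.94 and 7.75 on the Scap-/- arrays and 9.24 and 8.89 on the wild type arrays. The groups did not overlap, and signal remained in the Scap-/- pool. The change was -1.22 ± 0.18, or 2.33-fold lower (limma, adjusted p = 0.018). Without the second Scap-/- array it was -1.12 (adjusted p = 0.23), without the first -1.32 (adjusted p = 0.058) and without the first wild type array -1.05 (adjusted p = 0.15), so the call ended in each of these cases. The sources used here do not say whether the probe set lies in the deleted exons, so it is a limited check of the labels. The other Scap probe set was dim, at 3.56 and 3.63 in Scap-/- against 3.37 and 3.58 in wild type, with overlapping groups and a change of 0.12 ± 0.13.

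In the list for sterol uptake and the SREBP pathway itself 12 genes were measured. Of these 4 fell (Scap, Insig1, Stard4 and Aacs), 0 rose and 8 did not pass, against 0.258% of all probe sets called lower. The 4 include Scap, the targeted gene itself, whose fall says nothing of the other members. Aacs, an enzyme of lipid precursors, was listed here too. The list median was -0.26 against 0.02 over all probe sets. This and the other lists were chosen with earlier results of these data known, so their shares of calls are descriptive only. Insig1, whose protein retains SCAP in the endoplasmic reticulum, read 4.53 and 4.12 in Scap-/- against 7.26 and 6.45 in wild type. This was a 5.78-fold difference (change -2.53 ± 0.24, limma adjusted p = 0.0013) that was also called without each array in turn. Insig2, which encodes the other INSIG protein, read 10.04 and 9.61 against 10.21 and 9.84, with overlapping groups and a change of -0.19 ± 0.25 that took the opposite sign (0.02) without the second Scap-/- array. Its other bright probe set read 9.77 and 9.14 against 10.40 and 9.74, with overlapping groups and a change of -0.61 ± 0.27 (limma, adjusted p = 0.64). Srebf2, the gene of SREBP-2, was dim at 3.36 and 3.68 against 3.24 and 3.49, with overlapping groups and a change of 0.16 ± 0.14 that was about 0 without the second Scap-/- array.

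Stard4 encodes a soluble protein that carries cholesterol between membranes. Its brighter probe set read 7.05 and 6.74 in Scap-/- against 8.97 and 8.36 in wild type (change -1.77 ± 0.20, limma adjusted p = 0.0047), and without the second Scap-/- array the change was -1.62 with an adjusted p of 0.087. Its dimmer probe set changed by -1.43 ± 0.23, also without overlap, so both probe sets of this gene were called in the same direction. Neither was called with the 4 arrays alone (limma, adjusted p = 0.16 and 0.37). When 1 array was left out, the dimmer probe set changed by -1.07 to -1.79, and only the fit without the second wild type array kept its call. Aacs, the cytosolic acetoacetyl-CoA synthetase that turns ketone bodies into lipid precursors, read 7.42 and 7.16 against 8.49 and 8.27. Its change of -1.08 ± 0.17 (limma, adjusted p = 0.028) had adjusted p-values between 0.034 and 0.36 when 1 array was left out. Rnf139, a ubiquitin ligase with a sterol-sensing domain, read 6.95 and 6.35 against 7.59 and 6.81, and its groups overlapped.

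Cholesterol synthesis had the lowest median of the lists for liver metabolism, at -1.17. Of 9 measured genes 6 fell, 0 rose and 3 did not pass, against 0.258% of all probe sets called lower. The groups did not overlap, with Scap-/- lower, for 8 of the 9, against 14.4% of all probe sets. The list holds 23 genes, so most of them were not measured. The fallen genes came from earlier and later parts of the pathway. Pmvk, which phosphorylates mevalonate phosphate, read 6.24 and 5.84 in Scap-/- against 8.50 and 7.97 in wild type (4.58-fold lower, limma adjusted p = 0.0047). A dimmer probe set of Pmvk changed by 0.21. Idi1, which isomerises the 5-carbon building block of sterols, read 4.97 and 5.24 against 7.57 and 7.16. It was the member of this list with the smallest adjusted p (limma, 0.00015), and it was called without each array in turn and with the 4 arrays alone.

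Later steps fell as well. Cyp51, the lanosterol demethylase, read 4.88 and 4.64 in Scap-/- against 6.43 and 6.21 in wild type, a change of -1.57 ± 0.15 that held without each array in turn. Hsd17b7, which reduces the keto group of sterol intermediates, read 5.27 and 4.61 against 7.77 and 6.89, so that array 1 exceeded array 2 by 0.66 and 0.89 in the 2 pools. Its change of -2.39 ± 0.32 (limma, adjusted p = 0.011) was -2.06 without the second Scap-/- array (adjusted p = 0.16) and -1.94 without the first wild type array (adjusted p = 0.072). Nsdhl, which works beside it in removing the C4 methyl groups, read 5.95 and 5.99 against 7.02 and 6.82 (-0.95 ± 0.13). Sc5d, the lathosterol desaturase, read 7.68 and 7.58 against 9.09 and 8.51 (-1.17 ± 0.17). Nsdhl and Sc5d were called without the second wild type array and lost without any one of the other 3.

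Of the 3 genes of the list that did not pass, Lss had the largest change. Lss, which closes squalene epoxide into lanosterol, read 7.81 and 7.81 in Scap-/- against 8.42 and 8.38 in wild type, with no overlap and a change of -0.59 ± 0.15 (limma, adjusted p = 0.34). Ggps1, which makes geranylgeranyl diphosphate on a branch away from sterols, changed by -0.17 ± 0.11. Lbr, a sterol reductase that also binds the nuclear lamina, changed by -0.06 ± 0.10 with overlapping groups, and by 0.00 without the first wild type array. Lss, Ggps1 and Lbr lay outside the rule for named genes and were named after their values were seen.

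In the list for fatty acid synthesis, elongation and desaturation 19 genes were measured. Of these 4 fell, 0 rose and 15 did not pass, against 0.258% of all probe sets called lower. The list median was -0.26, and the list also holds the membrane protein gene Tlcd1 and the transcription factor gene Mlxipl. The groups did not overlap for 11 on the lower side and for 2 on the higher side, against 14.4% and 20% of all probe sets. Acss2, which makes cytosolic acetyl-CoA from acetate, read 7.56 and 7.20 in Scap-/- against 9.84 and 9.58 in wild type. It was 5.04-fold lower (limma, adjusted p = 0.0013) and was called under every alternative tried. Acacb, the acetyl-CoA carboxylase of the mitochondrial surface, read 8.02 and 7.97 against 9.32 and 9.04 (-1.19 ± 0.15, limma adjusted p = 0.0096). It was not called without the second Scap-/- array (adjusted p = 0.12) or without the first wild type array (adjusted p = 0.076).

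Fads2, the desaturase that begins the making of long polyunsaturated fatty acids, was called on both of its probe sets. One read 8.42 and 8.01 in Scap-/- against 9.48 and 9.22 in wild type (-1.13 ± 0.14), and the other 7.12 and 6.79 against 8.57 and 8.09 (-1.38 ± 0.19). Neither call was made without the second Scap-/- array, with adjusted p-values of 0.099 and 0.21, or without the first wild type array, with 0.081 and 0.099. Tlcd1, a membrane protein that affects phospholipid composition, read 7.21 and 6.91 against 7.89 and 7.84 (-0.81 ± 0.13). It was called without the first Scap-/- array and lost without any one of the other 3, and its other probe set changed by -0.62 without a call.

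The enzymes that build the fatty acid chain itself did not pass. Acaca, the cytosolic acetyl-CoA carboxylase, read 7.99 and 7.85 in Scap-/- against 8.75 and 8.52 in wild type, without overlap (-0.71 ± 0.14, limma adjusted p = 0.088). Fasn, fatty acid synthase, read 5.18 and 5.56 against 6.09 and 5.88, also without overlap (-0.61 ± 0.16, limma adjusted p = 0.34), and its other probe set changed by -0.36. Mlxipl, which encodes the glucose-responsive factor ChREBP, read 8.45 and 8.03 against 9.19 and 8.78 (-0.75 ± 0.19, limma adjusted p = 0.29). Fasn and Mlxipl were named after their values were seen. Acsl3, an acyl-CoA synthetase, changed by -0.63 ± 0.15 and by 0.06 on its other probe set. The elongases and dehydratases on the array lay between -0.26 for Hacd2 (0.07 without the first wild type array) and 0.28 for Elovl7, both named after their values were seen.

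Me1, Pank1 and Echdc1 had the largest falls among the probe sets not called. Me1, malic enzyme, which makes NADPH for lipid synthesis, read 4.39 and 3.86 in Scap-/- against 5.83 and 5.05 in wild type (-1.32 ± 0.29, limma adjusted p = 0.19). Without the second wild type array its change was called. Tkt, the other measured gene of the NADPH list, which encodes transketolase, changed by 0.11 ± 0.13 and by about 0 without the second Scap-/- array. Pank1, pantothenate kinase of coenzyme A synthesis, has 5 probe sets, which changed by -1.40 ± 0.27, -1.15 ± 0.33, -0.30 ± 0.15, -0.29 ± 0.24 and 0.03 ± 0.09. Echdc1, an ethylmalonyl-CoA decarboxylase that clears side products of fatty acid synthesis, had the largest change of all probe sets not called, with 6.49 and 5.54 against 8.27 and 7.43 (-1.83 ± 0.33, limma adjusted p = 0.07). Array 1 exceeded array 2 by 0.94 and 0.84 in the 2 pools, and it was called without the first Scap-/- array and without the second wild type array.

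**Figure D4:**
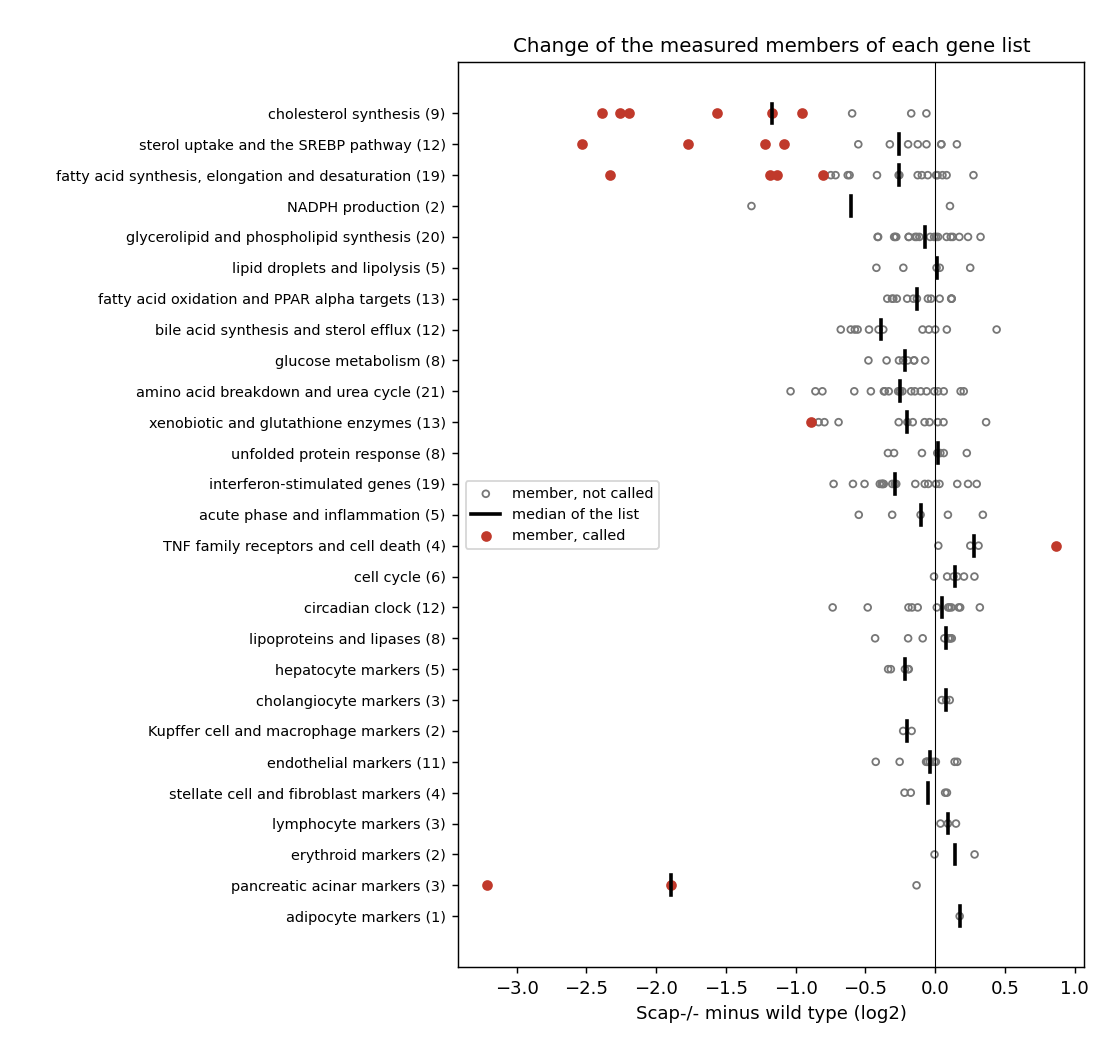
Change in Scap-/- liver (log2, Scap-/- minus wild type) of each measured member of the gene lists, 1 row per list with the number measured, filled points for called genes and a bar at the list median. Cholesterol synthesis has the lowest median of the pathway lists (-1.17), and the called points outside the 3 lipid and sterol lists at the top are Gstt3, Tnfrsf12a, Cpb1 and Cela3b.

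Several other genes fell that belong to no lipid synthesis list. Ces1e and Ces1f, carboxylesterases of a tandem gene family that hydrolyse esters and some drugs, read 7.25 and 6.85 against 8.26 and 8.06, and 5.77 and 5.25 against 7.30 and 6.84. Their changes were -1.11 ± 0.15 and -1.56 ± 0.20 (limma, adjusted p = 0.012 and 0.011). The Ces1f probe set carries the suffix that Affymetrix uses for probe sets matching several family members, so the 2 genes may share probes. A brighter probe set of Ces1f changed by -1.27 ± 0.24 with an adjusted p of 0.086. Ces1e and both Ces1f probe sets were lower without overlap.

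Deptor, an inhibitor of the mTOR kinases, read 8.77 and 8.70 in Scap-/- against 9.90 and 9.48 in wild type on the called probe set (-0.95 ± 0.13, limma adjusted p = 0.014). Its other 2 probe sets changed by -0.96 and -0.93 without a call. Rarres1, a gene induced by retinoic acid, read 7.60 and 7.11 against 9.02 and 8.52 (-1.42 ± 0.21). Serpina4-ps1, a pseudogene of the serpin cluster by its name, read 8.75 and 8.46 against 9.97 and 9.68 (-1.22 ± 0.15). Ttc39c, a protein with tetratricopeptide repeats, read 7.98 and 7.56 against 9.17 and 8.64 (-1.14 ± 0.18), while its other probe set changed by -0.31. In these 4 genes the lower wild type array lay above the higher Scap-/- array.

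Gstt3, a theta class glutathione transferase, was the 1 of 13 measured xenobiotic and glutathione genes that fell, against 0.258% of all probe sets. It read 6.65 and 6.50 in Scap-/- against 7.57 and 7.36 in wild type (-0.89 ± 0.12, limma adjusted p = 0.011). Camk1d, a calcium and calmodulin dependent kinase, read 5.80 and 5.82 against 6.89 and 6.43 (-0.85 ± 0.14), and its other probe set changed by -0.18. The dimmest calls were Atxn1, the gene of ataxin-1, at 4.07 and 3.79 against 4.69 and 4.58, and Epm2aip1, whose protein binds laforin, at 4.10 and 4.08 against 4.76 and 4.62. Brighter probe sets of these 2 genes changed by -0.50 and -0.48 without a call. The 4 called probe sets without a symbol changed by -3.63 (162523_at), -1.75 (113054_at), -1.60 (108752_at) and -0.70 (113601_at).

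All of these calls outside the lipid and sterol lists except 162523_at and 108752_at ended without the second Scap-/- array and without the first wild type array. Adjusted p-values without the second Scap-/- array were 0.15 for Ces1e, 0.13 for Ces1f, 0.2 for Deptor, 0.23 for Rarres1, 0.12 for Serpina4-ps1, 0.36 for Ttc39c, 0.15 for Gstt3, 0.33 for Camk1d, 0.29 for Atxn1 and 0.3 for Epm2aip1. Without the first wild type array they were 0.11 for Ces1e, 0.081 for Ces1f, 0.076 for Deptor, 0.15 for Rarres1, 0.076 for Serpina4-ps1, 0.21 for Ttc39c, 0.099 for Gstt3, 0.21 for Camk1d, 0.26 for Atxn1 and 0.34 for Epm2aip1. Each change kept its sign. Deptor, Camk1d, Epm2aip1 and 113601_at also lost their call without the first Scap-/- array.

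Only Tnfrsf12a and Fam25c were called higher. Tnfrsf12a, the receptor of the cytokine TWEAK, read 8.05 and 7.98 in Scap-/- against 7.18 and 7.11 in wild type, a rise of 0.87 ± 0.11 (1.82-fold, limma adjusted p = 0.011). Its duplicates lay 0.07 apart in each group. Its rise was 0.83 to 0.90 when 1 array was left out, with adjusted p-values of 0.037 to 0.1. Fam25c read 9.92 and 9.55 against 8.45 and 8.20, a rise of 1.41 ± 0.14 (2.65-fold, limma adjusted p = 0.0019) that was called without each array in turn, while its other probe set changed by 0.18. The called Fam25c probe set carries the same family suffix as that of Ces1f. The other 3 measured genes of TNF family receptors and cell death did not pass, with changes of 0.02 or more. Among probe sets with 1 symbol and no overlap, the largest rises that were not called were Pafah2, a phospholipase of the platelet-activating factor acetylhydrolase family (0.84 ± 0.23), and Cenpw, a centromere protein (0.71 ± 0.20).

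Among named genes, the largest falls outside the lipid synthesis, sterol uptake and SREBP pathway lists were in pancreatic acinar genes. Cpb1, pancreatic carboxypeptidase B, read 5.86 and 5.50 in Scap-/- against 9.11 and 8.68 in wild type, or 9.27-fold lower (limma, adjusted p = 0.00014). Cela3b, a pancreatic elastase, read 6.76 and 6.90 against 8.83 and 8.62, or 3.72-fold lower (limma, adjusted p = 0.00097). The unnamed 162523_at read 5.98 and 5.78 against 9.78 and 9.24, the largest change on the array at 12.4-fold. Each of the 3 was called without any one array. Of 25 pancreatic acinar genes, listed with earlier results of these data known, 3 were measured. Of the 3, 2 fell, against 0.258% of all probe sets. The third, Ctrc (chymotrypsin C), read 6.68 and 6.57 against 6.74 and 6.77. Summed over the 3 genes on the linear scale, the signal was 269 and 260 on the Scap-/- arrays against 1114 and 912 on the wild type arrays. Cpb1 and Cela3b thus differed between the 2 pools, while Ctrc changed by -0.13. With 1 pool per genotype, genotype and pool cannot be told apart. The part of the acinar signal in other changes was not tested.

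In the transgenic study the same genes took very different levels among pools. Cpb1 read 10.01 and 9.53 on the wild type arrays there, 5.22 and 4.98 on the TgSREBP-1a arrays, and 10.62 and 10.19 on the TgSREBP-2 arrays. For Cela3b the values were 10.54 and 10.12, then 6.43 and 6.55, then 11.16 and 10.76 in the same order. The unnamed 162523_at read 10.71 and 10.17, then 5.63 and 5.61, then 10.96 and 10.68. All 3 were thus low in the Scap-/- and TgSREBP-1a pools and high in the other 3 pools.

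Lists for other liver functions had few or no calls. Of 20 genes of glycerolipid and phospholipid synthesis, 13 of fatty acid oxidation, 12 of bile acid synthesis and sterol efflux, 8 of glucose metabolism, 21 of amino acid breakdown and the urea cycle, 8 of the unfolded protein response and 12 of the circadian clock, 0 passed in any list with limma. Genes of fatty acid oxidation stayed between -0.34 and 0.12, and none of the 13 had groups free of overlap, against 34.4% of all probe sets. Bile acid and sterol efflux genes had a median of -0.39. Cyp27a1, the sterol 27-hydroxylase, read 11.30 and 11.02 in Scap-/- against 11.98 and 11.70 in wild type (-0.68 ± 0.18, limma adjusted p = 0.37), while its other probe set changed by 0.16. Abcg5, a sterol exporter, read 8.54 and 8.21 against 9.08 and 8.88 (-0.60 ± 0.15, limma adjusted p = 0.28).

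Enzymes of amino acid breakdown had a list median of -0.25, with 17 of 21 negative. Tdo2, which opens the ring of tryptophan, read 8.82 and 7.98 in Scap-/- against 9.73 and 9.15 in wild type (-1.04 ± 0.28, limma adjusted p = 0.37). Haao, of the same pathway, read 10.28 and 10.26 against 10.86 and 10.83, with close duplicates and a change of -0.58 ± 0.13 (limma, adjusted p = 0.19). Uox, urate oxidase, read 6.90 and 6.49 against 7.97 and 7.54 and lay just outside the threshold (-1.06 ± 0.20, limma adjusted p = 0.082).

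Since polyinosinic-polycytidylic acid is known to raise interferon and both groups had it, 19 interferon-stimulated genes were examined. None was called by limma, 14 were negative, and the list median was -0.29. Oasl2, an antiviral gene, read 6.44 and 6.24 in Scap-/- against 6.75 and 6.95 in wild type (-0.51 ± 0.11, limma adjusted p = 0.16). Gbp6, a guanylate-binding protein, read 5.84 and 5.17 against 6.34 and 6.12 (-0.73 ± 0.20, limma adjusted p = 0.39). For 8 of the 19 the groups did not overlap on the lower side, against 14.4% of all probe sets.

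The labelled tissue showed its markers. The 5 measured hepatocyte markers read between 8.51 and 13.39 on the 4 arrays and 0 of 5 were called with limma, with changes between -0.34 for Fetub and -0.19 for Apoa1, both secreted liver proteins. Their summed linear signal was 13895 and 11889 on the Scap-/- arrays against 15753 and 14178 on the wild type arrays. Markers of cholangiocytes (3 measured), Kupffer cells and macrophages (2), endothelium (11), stellate cells (4), lymphocytes (3), erythroid cells (2) and adipocytes (1) gave 0 calls with list medians from -0.20 to 0.18. Of 12 neutrophil markers listed, 0 were measured here. With so few markers measured, the array gives little information on cell composition.

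Beside the calls, 15 probe sets had adjusted p-values between 0.05 and 0.1, and those of them that the rule for named genes does not take were named after their values were seen. They included Echdc1, Acaca, Uox and the brighter Ces1f probe set, and the nearest was Trim12a, which read 4.37 and 4.26 in Scap-/- against 4.95 and 4.84 in wild type (-0.58 ± 0.10, limma adjusted p = 0.054). Just inside the threshold were Camk1d and the dimmer Stard4 probe set, both with an adjusted p of 0.038. Coq8a, of coenzyme Q synthesis, read 9.17 and 9.12 against 9.81 and 9.84 (-0.68 ± 0.13, limma adjusted p = 0.082). Of the 15, 13 were lower and 2 were higher, the latter being Ccdc120 and Ckap2l.

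The Scap and transgenic comparisons share no arrays, so the called genes can be set beside both lines. All of them do share the same estimate of spread for a probe set, so a small spread favours a call in each. The transgenic lines share their wild type pool with each other. Among the 32 falls, 19 were called higher in TgSREBP-1a against 1.36% of all probe sets, and 7 were called lower against 0.814%. In TgSREBP-2, 12 were called higher against 0.338% and 2 were called lower against 0.161%. The age, the diet and the injections differ between the studies, so sizes are given side by side without a test.

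Falls called higher in both lines numbered 11 probe sets, led by genes of sterol synthesis and sensing. In the order Scap-/-, TgSREBP-1a, TgSREBP-2, Insig1 changed by -2.53, 3.03 ± 0.24 and 2.36 ± 0.24. Cyp51 changed by -1.57, 2.12 ± 0.15 and 2.72 ± 0.15. Stard4, Pmvk, Aacs, Nsdhl, Acss2, Hsd17b7, Idi1 and the unnamed 108752_at were the others, and Stard4 was so on both of its probe sets. Sc5d was called higher in TgSREBP-2 (1.13 ± 0.17) and not in TgSREBP-1a (0.66 ± 0.17), and its difference between the lines did not pass (limma, adjusted p = 0.23).

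Another 8 falls were called higher in TgSREBP-1a and not in TgSREBP-2. All 8 also differed between the lines by limma, as did 1.86% of all probe sets. Choosing them by their calls in the same lines already favours such a difference. They were both Fads2 probe sets, Acacb, Gstt3, Camk1d, Tlcd1, Rarres1 and the unnamed 113601_at. In the order Scap-/-, TgSREBP-1a, TgSREBP-2, Gstt3 changed by -0.89, 2.01 ± 0.12 and -0.03 ± 0.12. Acacb changed by -1.19, 1.33 ± 0.15 and -0.14 ± 0.15. Rarres1 changed by -1.42, 1.78 ± 0.21 and -0.90 ± 0.21, and its wild type level was 9.02 and 8.52 in the Scap study against 6.29 and 6.15 in the transgenic study.

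A further 12 falls were higher in neither line. Scap itself changed by 0.10 ± 0.18 under SREBP-1a and 0.37 ± 0.18 under SREBP-2. Neither line gave a call for Ces1e (-0.45 under SREBP-1a and -0.54 under SREBP-2) or Ces1f (0.04 and -0.56), nor were Atxn1 and Epm2aip1. Serpina4-ps1 was called lower in all 3 comparisons, by -1.22 in Scap-/-, by -0.71 ± 0.15 in the SREBP-1a line and by -0.87 ± 0.15 in the SREBP-2 line, and the unnamed 113054_at was too. Deptor and Ttc39c were called lower in Scap-/- and in TgSREBP-1a (-0.62 ± 0.13 and -0.81 ± 0.18), as were Cpb1, Cela3b and 162523_at. Of the 2 rises, Tnfrsf12a was higher in TgSREBP-1a too (1.36 ± 0.11), and Fam25c was lower there (-1.58 ± 0.14).

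**Figure D5:**
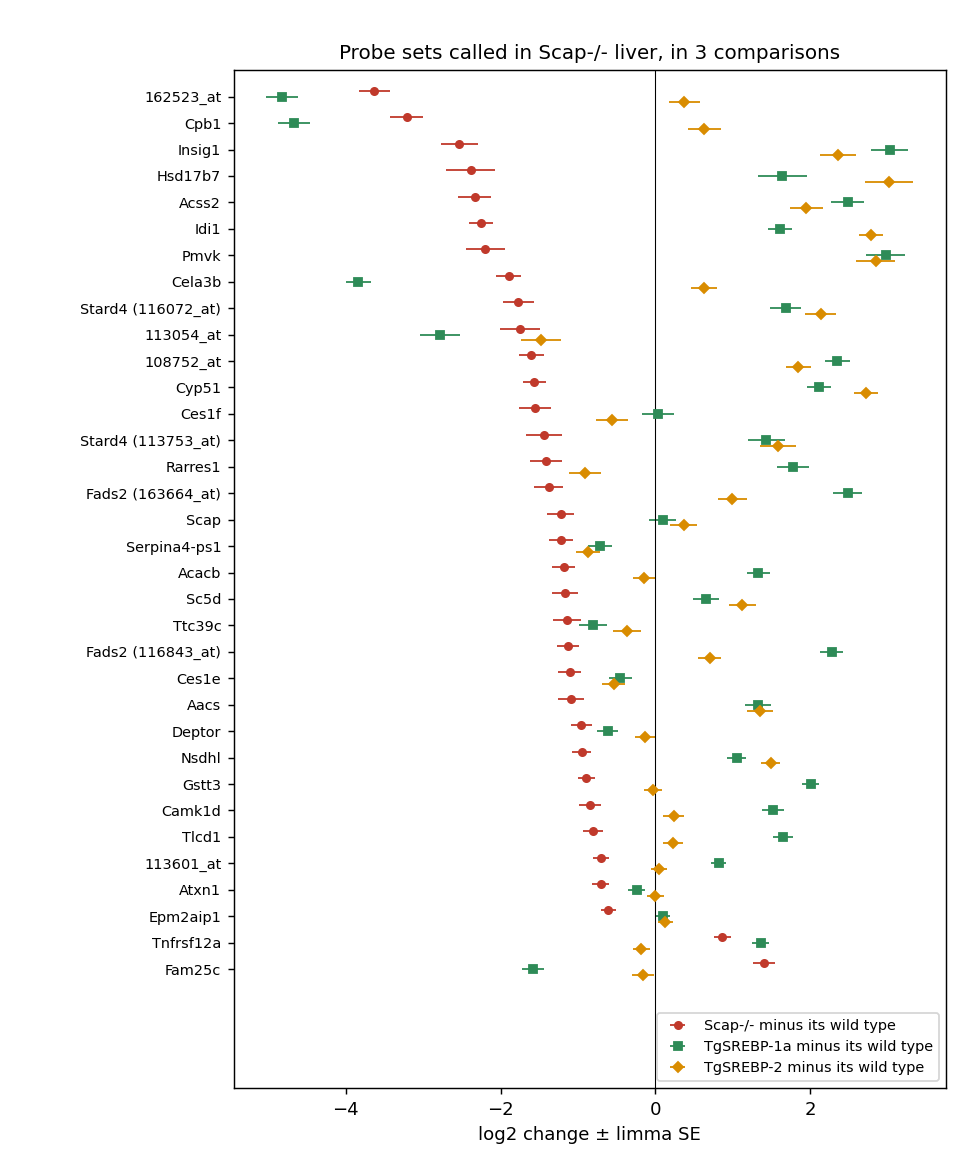
Change (log2, with limma SE) of the 34 called probe sets in Scap-/- (circles), TgSREBP-1a (squares) and TgSREBP-2 (diamonds), each against its own wild type pool. Sterol genes such as Insig1, Idi1 and Cyp51 lie left of 0 in Scap-/- and right of 0 in both lines, Gstt3 and Acacb lie right of 0 in TgSREBP-1a alone, and Cpb1 and Cela3b lie far left in Scap-/- and TgSREBP-1a.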

How the data were processed

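Liver RNA pools were measured on 10 arrays, of which the 4 arrays of the Scap study are the subject here. The authors deposited log2 values for every probe set. The submitters' processing notes name RMA, without a version, while the design text names MICROARRAY SUITE 5.0. The array medians lay between 5.625 and 5.662. No genome build was named for the files. The platform's annotation table gave the symbols: 10581 probe sets had 1 symbol, 178 several and 1652 none. A RefSeq table changed 0 symbols.

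All 10 arrays entered 1 linear model with a mean for each group (limma 3.58.1, lmFit then eBayes, R 4.3.3), and p-values were adjusted by Benjamini-Hochberg, two-sided. The number of arrays limits the precision, and the median SE of a change was 0.12. Each gene of the 28 lists (759 entries) took the probe set brightest on average. Genes named were all called probe sets with 1 symbol, Scap, Srebf1, Srebf2, Insig1 and Insig2 where measured, up to 6 members per list (called first, then by unadjusted p), and the 5 largest rises and falls without overlap among probe sets not called. After the values were seen, list members with an unadjusted p of 0.05 or more were mostly left unnamed. The members and lists were chosen with earlier results of these data known. Most calls also lay among bright probe sets, so list counts beside those over all probe sets are descriptive only. The procedure was tested on simulated data in which noise was independent between arrays, so deviations shared by same-numbered arrays were not covered. Alternatives changed the arrays fitted, normalization, filter, fold minimum, probe sets per gene and the replicate block.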

Additional observations from a re-analysis of the deposited data

Results flagged for a closer look

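In 15 of the 34 called probe sets the transgenic pools differed from each other, by limma's test of TgSREBP-1a against TgSREBP-2, which 1.86% of all probe sets passed. With 1 pool per line, transgene and pool cannot be told apart. Log2 differences are TgSREBP-1a minus TgSREBP-2. The pancreatic genes differed most, with -5.30 for Cpb1 and -4.47 for Cela3b, and the unnamed 162523_at with -5.20. From the fatty acid synthesis list, Fads2 was higher under SREBP-1a by 1.58 and 1.49 on its 2 probe sets, Acacb by 1.48 and Tlcd1 by 1.42. Rarres1 was higher by 2.68, Gstt3 by 2.03, Tnfrsf12a by 1.54, Camk1d by 1.29 and 113601_at by 0.77. The other probe sets of Tlcd1 and Camk1d did not pass this test. Idi1 gave -1.18, so its rise was larger under SREBP-2. Fam25c gave -1.42 and 113054_at gave -1.31. The other 19 called probe sets did not pass this test.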

How the results depend on the processing

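Across 14 alternatives, 1 of them chosen after seeing the data, 5 of the 34 calls held throughout. Scaling changed little: 35 were called with cyclic loess, 34 with median centring and 35 with a trended, robust fit. With the 4 arrays of the Scap study alone 5 were called, with 1 gene of cholesterol synthesis, 0 of sterol uptake and the SREBP pathway and 1 of fatty acid synthesis. Leaving out 1 array gave 10 to 68 calls, 2 to 6 genes of cholesterol synthesis, 1 to 4 of the sterol list, 1 to 4 of fatty acid synthesis, and 5 to 23 and 5 to 15 falls that were higher in TgSREBP-1a and TgSREBP-2. Same-numbered arrays deviated together between Scap-/- and wild type (r = 0.598), the highest correlation of the 10 pairs of groups. Pairs with TgSREBP-2 ran from -0.17 to 0.11, and pairs without it from 0.34 to 0.60. The main fit did not pair arrays by number, and whether the numbers mark a shared step was not tested. With the replicate block 91 were called (82 lower, 9 higher), all 34 among them, with 31 and 19 falls higher in TgSREBP-1a and TgSREBP-2. With the block and the 4 arrays together, chosen after seeing the data, 169 were called, with 8 genes of fatty acid synthesis. A rule of 1.5-fold and no overlap, without a test, gave 127 (116 lower, 11 higher), with 8 genes of fatty acid synthesis and 38 and 27 falls higher in the lines. A 2-fold minimum left 25. Leaving out 1 array moved Insig2 between -0.41 and 0.022, Srebf2 between -0.0067 and 0.32 and Tkt between -0.0067 and 0.22, and all 3 took the opposite sign without the second Scap-/- array. It moved Hacd2 between -0.58 and 0.069 and Lbr between -0.13 and 0.00052, both with the opposite sign without the first wild type array. Over all alternatives and the single genes named, 1117 values kept their side of the threshold, 97 lost the call, 78 gained it and 5 reversed. The cause of these differences was not tested. Weak signal limits Srebf2 and Me1, and 2 hybridisations of 1 pool say nothing of variation between mice.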
